A study of Mus musculus with 9 samples.

Results

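A set of 10 genes of the myeloid chemokine system (the members) was followed through 9 mouse bone marrow libraries: the receptors Cxcr4, Cxcr2, Ccr1, Ccr2 and Cx3cr1 and the ligands Ccl3, Ccl4, Ccl6, Ccl9 and Cxcl2. They were chosen by symbol, with earlier results of these data known, and all 10 were found among the 21159 genes of the count table. All cells came from lineage-depleted marrow of mice carrying floxed Runx2 (Runx2fl/fl) and a tamoxifen-inducible Cre (CreERT2tg), and no age of the animals is stated. The Runx2ko group (3 libraries) held cells transformed by a retrovirus for KMT2A-MLLT1-eGFP, a leukaemia fusion also called MLL-ENL, grown in suspension and given 4-hydroxytamoxifen (4-OHT, 400 nM for 24 hours), which activates Cre. The Runx2wt group (3 libraries) held the same kind of transformed cells given ethanol in place of 4-OHT. The BM progenitor group (3 libraries) was RNA of untreated cells taken earlier, before the first replating of a methylcellulose culture. Replating every 7 days and the cytokines IL-3, IL-6 and stem cell factor are labelled alike for all 9 libraries. For the untreated cells of BM progenitor, presence or absence of the fusion is not stated in the labels. Fusion, culture form, passage and the ethanol or 4-OHT treatment therefore cannot be told apart in a comparison with BM progenitor. For Runx2ko, Cre activity and Runx2 loss are added to these. In a comparison of Runx2ko with Runx2wt, 4-OHT, Cre activity and Runx2 loss cannot be told apart.

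Chemokines are small secreted proteins that bind G protein-coupled receptors on leukocytes and steer their movement. In the marrow, CXCR4 and its ligand CXCL12, made by stromal cells, hold stem cells and immature myeloid cells in place, whereas CCR2 lets monocytes leave and CXCR2 favours the release of neutrophils. Myeloid cells also make chemokines themselves, among them the CC chemokines CCL3, CCL4, CCL6 and CCL9, which lie together in 1 cluster on mouse chromosome 11 and of which several act through CCR1.

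Libraries were made by QuantSeq, a 3' tag method, and held 3118594 to 5348177 counts. Levels are given as CPM (counts scaled to a common library size), with TMM factors. Among transformed libraries Runx2ko replicate 1 was unlike the rest, with a correlation of log2 CPM across genes of 0.793 to 0.816 to each of them, against 0.934 to 0.959 among the others. Summed mast cell and basophil markers (12 genes) reached 4222 CPM in that library, against 44.9 and 478.1 CPM in the other Runx2ko libraries and 71.7 to 315.8 CPM in Runx2wt. Summed megakaryocyte and erythroid markers (11 genes) were at 1657 CPM there, of which Itga2b held 688.3 and Hbb-bt 775 CPM. That sum was 203.6 and 179.4 CPM in the other Runx2ko libraries and 229.5 to 248.7 CPM in Runx2wt. Summed monocyte and macrophage markers (12 genes) were at 469 CPM in Runx2ko replicate 1. They were at 2107 and 4859 CPM in the other Runx2ko libraries and 2418 to 3279 CPM in Runx2wt. Ly6c2 alone held 199.3 CPM of the sum in Runx2ko replicate 1. It held 1420 and 3552 CPM in the other Runx2ko libraries and 1202 to 2620 CPM in Runx2wt. The members' log2 fold changes between Runx2ko and Runx2wt are therefore given with and without Runx2ko replicate 1. For Runx2 itself the levels were 21.0, 120.1 and 134.7 CPM in Runx2ko, against 159.4, 178.8 and 131.0 CPM in Runx2wt; which exon is floxed is not stated, so tags from the 3' end do not check the deletion. The extraction protocol speaks of T-ALL cells; summed B, T and NK cell markers (12 genes) were at 3.25 to 27.6 CPM in Runx2ko, 3.76 to 10.9 CPM in Runx2wt and 13.8 to 16.6 CPM in BM progenitor. In such bulk samples fewer cells of a type and less RNA per cell cannot be told apart.

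The promoters of the members are shown because the design removes Runx2, a RUNX transcription factor. RefSeq (GRCm38.p6) gave a window from 250 bases before to 50 bases after the annotated start for 9 of the 10 members. The core letters TGTGGT or their reverse complement ACCACA, searched on both strands, were found in 3 of these 9 windows, those of Ccr1, Cx3cr1 and Ccl3, and in 16.8% of 32851 windows of the same length over all genes. The letters TATAAA on the gene's strand were found in the windows of Cxcr4 and Ccl9 and in 8.3% of all windows. The 4 windows below are the one of Cxcr4, with TATAAA in capitals 30 bases before the start, and those with RUNX letters in capitals, 58 bases before the start in Ccr1, 54 in Cx3cr1 and 122 in Ccl3; all are on the minus strand of the genome and written 5′ to 3′ along the gene.
Cxcr4 (chr1:128592250-128592549): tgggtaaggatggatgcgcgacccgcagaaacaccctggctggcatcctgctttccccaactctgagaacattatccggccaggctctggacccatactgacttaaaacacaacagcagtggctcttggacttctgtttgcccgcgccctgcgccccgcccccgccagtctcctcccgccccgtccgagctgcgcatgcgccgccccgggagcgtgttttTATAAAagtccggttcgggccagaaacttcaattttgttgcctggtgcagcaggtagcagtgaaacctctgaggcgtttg
Ccr1 (chr9:123968643-123968942): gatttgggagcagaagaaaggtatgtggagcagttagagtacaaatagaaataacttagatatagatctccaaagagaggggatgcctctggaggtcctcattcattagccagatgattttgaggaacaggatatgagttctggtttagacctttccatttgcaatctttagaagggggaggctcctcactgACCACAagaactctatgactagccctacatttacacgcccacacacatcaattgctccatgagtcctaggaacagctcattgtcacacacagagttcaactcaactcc
Cx3cr1 (chr9:120068247-120068546): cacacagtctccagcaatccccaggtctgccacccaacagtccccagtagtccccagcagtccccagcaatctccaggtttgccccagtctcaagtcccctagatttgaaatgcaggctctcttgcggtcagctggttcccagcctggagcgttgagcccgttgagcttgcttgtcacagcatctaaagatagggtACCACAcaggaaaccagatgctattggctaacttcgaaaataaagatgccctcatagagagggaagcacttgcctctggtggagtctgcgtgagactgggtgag
Ccl3 (chr11:83649329-83649628): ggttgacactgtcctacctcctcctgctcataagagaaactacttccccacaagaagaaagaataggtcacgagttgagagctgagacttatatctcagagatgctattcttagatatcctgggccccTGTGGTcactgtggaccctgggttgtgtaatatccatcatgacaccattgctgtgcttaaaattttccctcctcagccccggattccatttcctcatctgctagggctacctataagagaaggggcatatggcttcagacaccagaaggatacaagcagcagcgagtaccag
Such matches describe letters only and no binding was measured.

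Cxcr4 (ENSMUSG00000045382, GRCm38 chr1:128588199-128592293, minus strand), the receptor for CXCL12, stood apart in 1 library. It was at 25.6, 201.5 and 220.6 CPM in Runx2ko, 155.2, 154.6 and 161.9 CPM in Runx2wt and 115.7, 111.9 and 96.8 CPM in BM progenitor. Runx2wt lay wholly above BM progenitor, and in Runx2ko replicate 1 was the lowest of all 9 libraries while replicates 2 and 3 were the highest. Over all libraries no comparison passed: the log2 fold change was 0.54 for Runx2wt against BM progenitor (SE 0.57, edgeR adjusted p = 0.545), -0.07 for Runx2ko against Runx2wt (SE 0.57, adjusted p = 0.98) and 0.47 for Runx2ko against BM progenitor (SE 0.57, adjusted p = 0.604). Without Runx2ko replicate 1, Cxcr4 rose in Runx2wt over BM progenitor by the same 0.54 log2 units, a 1.45-fold difference, with an SE of 0.14 (edgeR adjusted p = 0.0156), and in Runx2ko over BM progenitor by 0.96 log2 units, or 1.95-fold (SE 0.15, adjusted p = 0.00129). Runx2wt and BM progenitor held the same libraries in both fits, which share 1 estimate of the spread over all groups. Against Runx2wt the 2 remaining Runx2ko libraries were 0.42 log2 units higher, which did not pass (SE 0.15, adjusted p = 0.506). The low Cxcr4 library was the one with the low monocyte sum and the high mast cell and megakaryocyte and erythroid marker sums. The part of those cells in its level was not tested. Cxcl12, the ligand, was counted at 0 to 2.09 CPM over all 9 libraries and was too low to test.

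**Figure D1:**
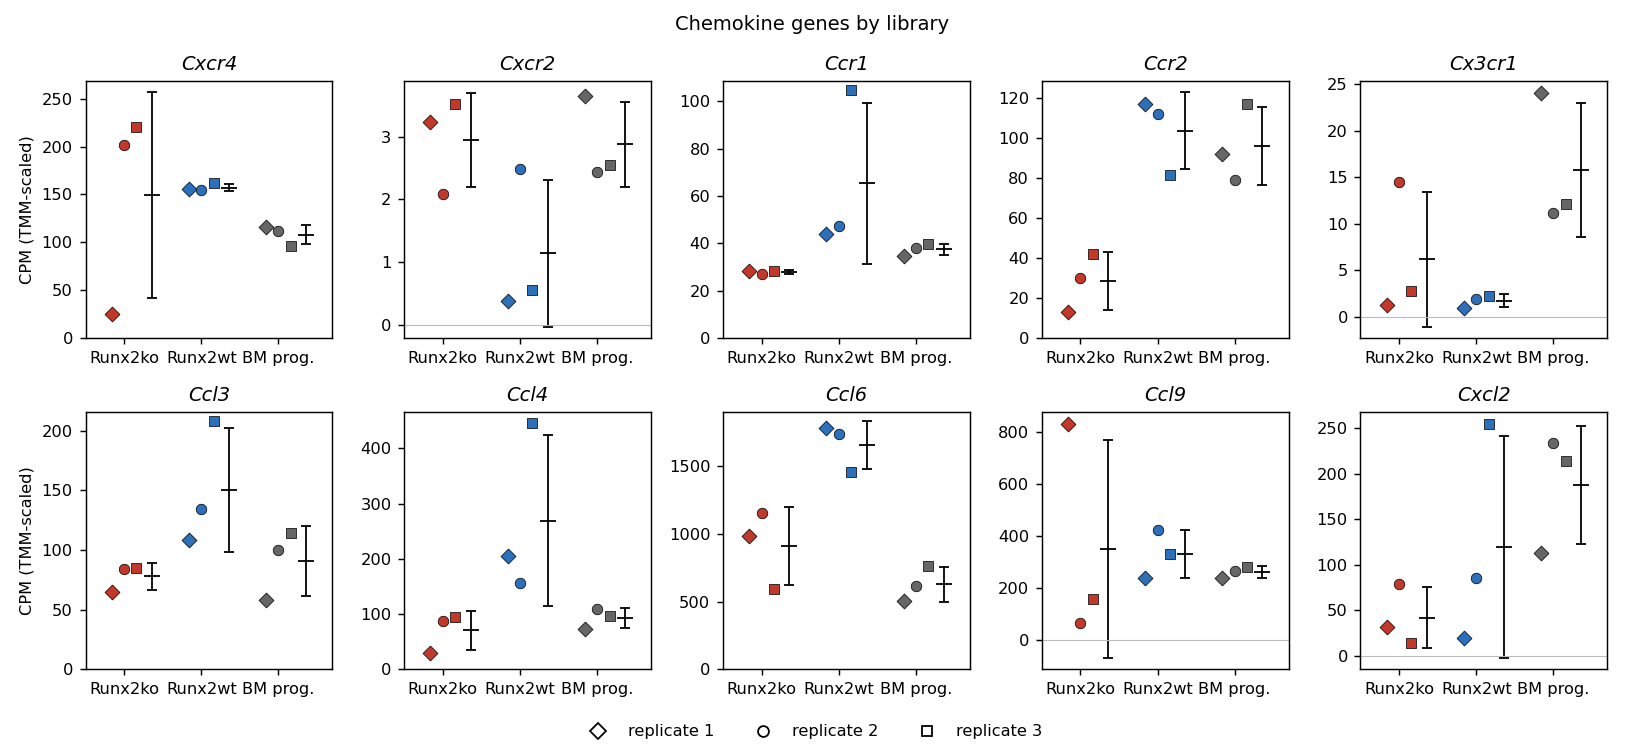
CPM (TMM-scaled, linear axis) of the 10 members in each library of Runx2ko, Runx2wt and BM progenitor (BM prog.); symbols give the replicate number, and the bar beside each group its mean with 1 SD (n = 3). Ccr2 in Runx2ko lies at 13.3 to 42.3 CPM, below every Runx2wt and BM progenitor library, and in Cxcr4 Runx2ko replicate 1 lies at 25.6 CPM, apart from all other libraries.

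Ccr2 and Ccr1 are neighbours on chromosome 9, with Ccr3 and Ccr1l1 between them in a span of 151.4 kb. Ccr2 (ENSMUSG00000049103, chr9:124101950-124113557, plus strand), the receptor for CCL2 on monocytes, was at 13.3, 29.9 and 42.3 CPM in Runx2ko, 117.2, 112.2 and 81.5 CPM in Runx2wt and 91.8, 78.8 and 117.0 CPM in BM progenitor. Every Runx2ko library lay below every library of the other groups, which overlapped with each other. Against BM progenitor, Ccr2 fell in Runx2ko by 1.75 log2 units (3.35-fold, SE 0.37, edgeR adjusted p = 0.0155), and it was the only member to pass in that comparison, in which 17.2% of all 11196 tested genes did. The call held without Runx2ko replicate 1 (log2 fold change -1.42, SE 0.25, adjusted p = 0.00246) and was lost without BM progenitor replicate 1 or 3 (adjusted p = 0.0535 and 0.0674). Against Runx2wt the log2 fold change was -1.86 (3.63-fold, SE 0.37) and did not pass with edgeR (adjusted p = 0.511; -1.53 and adjusted p = 0.102 without Runx2ko replicate 1), a comparison in which edgeR called 0% of genes. DESeq2 called 0.415% of 11088 genes there and Ccr2 among them (log2 fold change -1.86, adjusted p = 0.00204). Runx2wt and BM progenitor differed by 0.11 log2 units (SE 0.35, adjusted p = 0.852).

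Ccr1 (ENSMUSG00000025804, chr9:123962124-123968692, minus strand), a receptor for CCL3 and, in the mouse, for CCL6 and CCL9, was at 28.5, 27.0 and 28.2 CPM in Runx2ko, 44.0, 47.4 and 104.6 CPM in Runx2wt and 34.9, 38.0 and 39.7 CPM in BM progenitor. The 3 groups did not overlap, with Runx2ko lowest, BM progenitor between and Runx2wt highest, and the spread within Runx2ko was small (27.9 ± 0.765 CPM, SD, n = 3). The log2 fold change was -1.23 for Runx2ko against Runx2wt (SE 0.31, edgeR adjusted p = 0.579), 0.80 for Runx2wt against BM progenitor (SE 0.31, adjusted p = 0.111) and -0.43 for Runx2ko against BM progenitor (SE 0.31, adjusted p = 0.371), and none passed. Without Runx2ko replicate 1, whose level matched the other Runx2ko libraries, the Runx2ko against Runx2wt value was -1.24 (SE 0.34, adjusted p = 0.342). Within Runx2wt, replicate 3 at 104.6 CPM stood far above the other libraries at 44.0 and 47.4 CPM. Over 16 alternative fits the Runx2ko against Runx2wt value ran from -1.44 to -0.715. That of Runx2wt against BM progenitor ran from 0.283 to 0.998, and neither passed in any of these fits.

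Cx3cr1 (ENSMUSG00000052336, chr9:119901616-120069879, minus strand), the fractalkine receptor of monocytes and macrophages, was at 1.29, 14.5 and 2.71 CPM in Runx2ko, 0.941, 1.94 and 2.23 CPM in Runx2wt and 24.1, 11.1 and 12.1 CPM in BM progenitor. Its level was low in every Runx2wt library, and among Runx2ko libraries replicate 2 alone reached the range of BM progenitor. Cx3cr1 fell in Runx2wt against BM progenitor by 3.23 log2 units (9.35-fold, SE 0.85, edgeR adjusted p = 0.0373), on 20 counts in the 3 Runx2wt libraries and 230 in BM progenitor. The call held without Runx2ko replicate 1 (adjusted p = 0.00362) and was lost when any of the 6 compared libraries was left out (adjusted p = 0.0834 to 0.119), with limma-voom (adjusted p = 0.0508) and with a replicate block (adjusted p = 0.0582). For Runx2ko the log2 fold change was 1.91 against Runx2wt (SE 0.84, adjusted p = 0.616; 2.40 and adjusted p = 0.353 without Runx2ko replicate 1) and -1.31 against BM progenitor (SE 0.75, adjusted p = 0.252; -0.85 and adjusted p = 0.313 without that library). The annotated span of Cx3cr1 overlaps 4 other counted genes, Csrnp1, Wdr48, Gorasp1 and Ttc21a, with which reads may be shared.

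Cxcr2 (ENSMUSG00000026180, chr1:74153989-74161246, plus strand), the neutrophil receptor for CXCL2, was barely counted, with 2 to 20 counts per library. It stood at 3.23, 2.09 and 3.52 CPM in Runx2ko, 0.376, 2.49 and 0.556 CPM in Runx2wt and 3.65, 2.43 and 2.55 CPM in BM progenitor. Runx2wt replicate 2 overlapped with both other groups while replicates 1 and 3 rested on 2 counts each. The log2 fold changes of 1.39 for Runx2ko against Runx2wt (SE 0.71, edgeR adjusted p = 0.66; 1.32 and adjusted p = 0.724 without Runx2ko replicate 1) and -1.37 for Runx2wt against BM progenitor (SE 0.70, adjusted p = 0.209) did not pass.

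**Figure D2:**
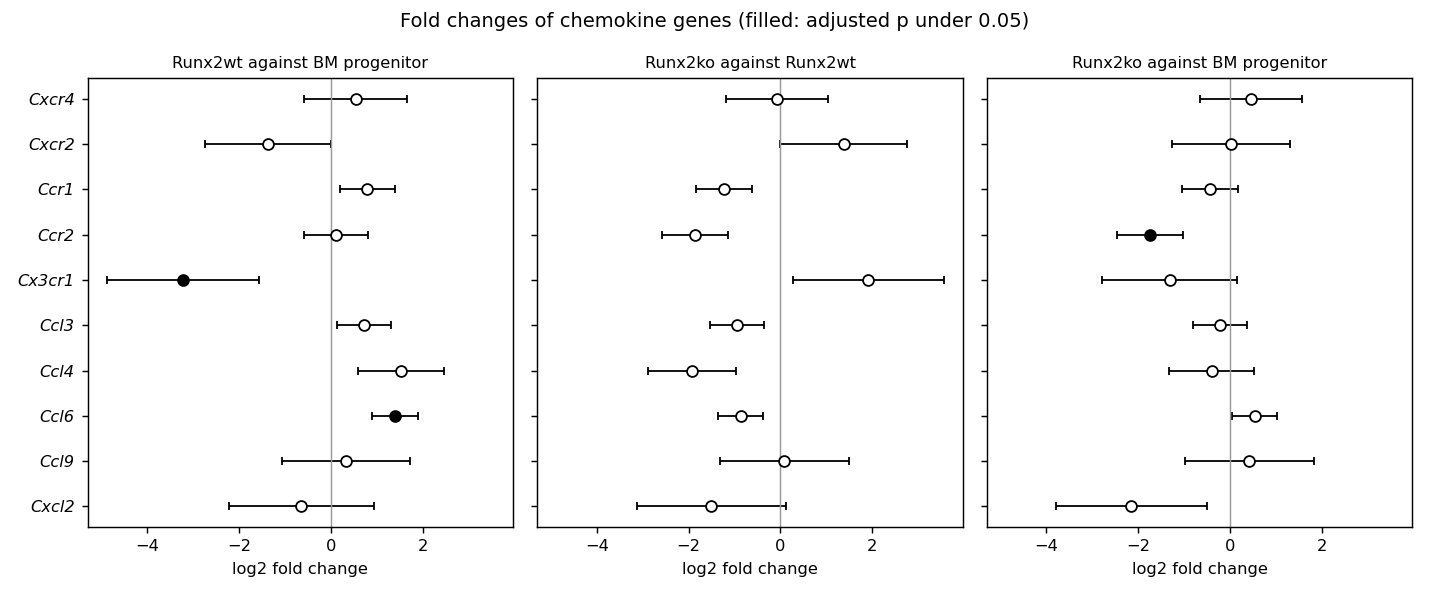
Log2 fold changes of the 10 members in the 3 comparisons from the edgeR fit over all 9 libraries, with bars of 1.96 SE to each side. The bars use a normal multiplier and are narrower than 95% intervals of the F-test. Filled points passed at adjusted p under 0.05. Cx3cr1 (-3.23) and Ccl6 (1.40) are filled for Runx2wt against BM progenitor, Ccr2 (-1.75) for Runx2ko against BM progenitor, and no point is filled for Runx2ko against Runx2wt.

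The 4 CC chemokine genes among the members lie within 91.8 kb of chromosome 11, in the order Ccl9, Ccl6, Ccl3 and Ccl4. Ccl6 (ENSMUSG00000018927, chr11:83587882-83593087, minus strand), a rodent chemokine made by myeloid cells, was at 985.6, 1152 and 595.7 CPM in Runx2ko, 1779, 1738 and 1455 CPM in Runx2wt and 501.3, 617.7 and 759.5 CPM in BM progenitor. The Runx2wt libraries lay above all others, and Runx2ko overlapped with BM progenitor. Ccl6 rose in Runx2wt over BM progenitor, 2.65-fold (log2 fold change 1.40, SE 0.25, edgeR adjusted p = 0.0112). With Cx3cr1 this made 2 of 10 members called, against 13.5% of all tested genes. The Ccl6 call held without Runx2ko replicate 1 (adjusted p = 0.00179) and was lost without BM progenitor replicate 1 or 2 (adjusted p = 0.0565 and 0.0622). Against Runx2wt, Runx2ko differed by -0.86 log2 units (1.82-fold, SE 0.25) without passing (adjusted p = 0.579; -0.92 and adjusted p = 0.383 without Runx2ko replicate 1). Against BM progenitor it differed by 0.54 log2 units (SE 0.25, adjusted p = 0.161). Ccl6 overlaps an antisense transcript, E230016K23Rik, which had 34 counts over all libraries.

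Ccl9 (ENSMUSG00000019122, chr11:83572919-83578636, minus strand), the paralogue of Ccl6 and likewise a ligand of CCR1, did not follow it. It was at 831.3, 65.5 and 157.7 CPM in Runx2ko, 238.2, 421.3 and 332.2 CPM in Runx2wt and 237.8, 266.5 and 282.3 CPM in BM progenitor. Runx2ko held both the highest library, replicate 1, and the lowest, replicates 2 and 3, while Runx2wt and BM progenitor overlapped. With all libraries the log2 fold change was 0.09 for Runx2ko against Runx2wt (SE 0.72, edgeR adjusted p = 0.981) and 0.42 for Runx2ko against BM progenitor (SE 0.72, adjusted p = 0.722). Without Runx2ko replicate 1 the direction turned: Ccl9 fell in Runx2ko against BM progenitor by 1.24 log2 units (2.37-fold, SE 0.33, adjusted p = 0.018), and the log2 fold change against Runx2wt was -1.57 (SE 0.34, adjusted p = 0.212), which did not pass. Runx2ko replicate 1 is the library with mast cell and basophil markers at 4222 CPM and megakaryocyte and erythroid markers at 1657 CPM. The part of those cells in its Ccl9 level was not tested.

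Ccl3 and Ccl4 encode MIP-1 alpha and MIP-1 beta, and CCL3 is a ligand of CCR1. Ccl4 (ENSMUSG00000018930, chr11:83662584-83664683, plus strand) was at 29.1, 87.2 and 94.6 CPM in Runx2ko, 205.3, 155.5 and 445.1 CPM in Runx2wt and 72.6, 109.5 and 96.4 CPM in BM progenitor. All Runx2wt libraries were above all others, Runx2wt replicate 3 far above, and Runx2ko and BM progenitor overlapped. The log2 fold change was -1.93 for Runx2ko against Runx2wt (3.81-fold, SE 0.49), which did not pass with edgeR (adjusted p = 0.579; -1.56 and adjusted p = 0.27 without Runx2ko replicate 1) and passed with DESeq2 (adjusted p = 0.0205). For Runx2wt against BM progenitor it was 1.53 (2.89-fold, SE 0.48, edgeR adjusted p = 0.062), with a pass in DESeq2 (adjusted p = 0.0119) and in the edgeR fit without Runx2ko replicate 1 (SE 0.33, adjusted p = 0.00607). Ccl3 (ENSMUSG00000000982, chr11:83647844-83649355, minus strand) was at 65.0, 84.1 and 84.6 CPM in Runx2ko, 108.4, 134.7 and 208.4 CPM in Runx2wt and 57.8, 99.8 and 114.5 CPM in BM progenitor. Runx2ko lay wholly below Runx2wt, and BM progenitor overlapped with both. Its log2 fold change was -0.95 for Runx2ko against Runx2wt (SE 0.30, edgeR adjusted p = 0.579; -0.83 and adjusted p = 0.526 without Runx2ko replicate 1) and 0.73 for Runx2wt against BM progenitor (SE 0.30, adjusted p = 0.132), neither of which passed.

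Cxcl2 (ENSMUSG00000058427, chr5:90903871-90905938, plus strand), the CXCR2 ligand that draws neutrophils, was at 31.7, 79.2 and 14.6 CPM in Runx2ko, 19.6, 85.1 and 255.1 CPM in Runx2wt and 113.3, 233.9 and 214.5 CPM in BM progenitor. It varied widely within both transformed groups, and Runx2ko lay below BM progenitor with no overlap while Runx2wt overlapped with both. The log2 fold change of Runx2ko against BM progenitor was -2.15 (4.43-fold, SE 0.84, edgeR adjusted p = 0.108; -1.98 and adjusted p = 0.112 without Runx2ko replicate 1) and did not pass. It was -1.50 against Runx2wt (SE 0.83, adjusted p = 0.677; -1.32 and adjusted p = 0.753 without that library).

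For Runx2ko against Runx2wt as a whole, edgeR called 0 of 10 members and limma-voom 0, DESeq2 called 2, and 6 members had an unadjusted p under 0.05, as did 7.91% of all tested genes. The groups did not overlap for 5 members, Ccr1, Ccr2, Ccl3, Ccl4 and Ccl6, all lower in Runx2ko, and for none in the other direction. Over all 11196 tested genes 4.73% lay wholly lower and 4.95% wholly higher in Runx2ko. Without Runx2ko replicate 1, edgeR again called 0 members and 0.043% of 11636 genes. The median log2 fold change was -0.91 over the 10 members and 0.01 over all tested genes. For Runx2wt against BM progenitor DESeq2 called 3 members (Cx3cr1, Ccl4 and Ccl6) and 21.6% of genes, and the edgeR fit without Runx2ko replicate 1 called 4 (those and Cxcr4) and 28% of genes. In that comparison 4 members lay wholly higher (Cxcr4, Ccr1, Ccl4 and Ccl6), as did 24.8% of all genes, and 1 wholly lower (Cx3cr1), as did 24.5%. The members' median log2 fold change there was 0.44, against 0.01 over all tested genes. For Runx2ko against BM progenitor DESeq2 called Ccr2 alone and 24% of genes, and edgeR without Runx2ko replicate 1 called 3 members (Cxcr4, Ccr2 and Ccl9) and 28.5% of genes. There 3 members lay wholly lower (Ccr1, Ccr2 and Cxcl2), as did 18.8% of all genes, and none wholly higher, as did 19.5%. The comparisons of Runx2ko with Runx2wt and of Runx2wt with BM progenitor share the Runx2wt libraries, so their counts are not independent.

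**Figure D3:**
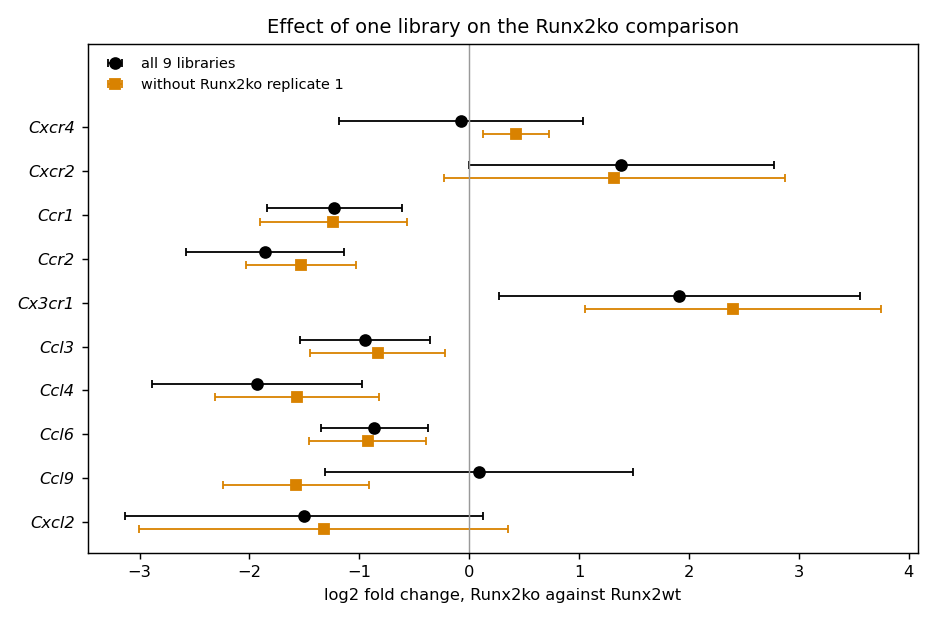
Log2 fold changes of the 10 members for Runx2ko against Runx2wt in the edgeR fit over all 9 libraries (black circles) and in the fit without Runx2ko replicate 1 (orange squares). Bars reach 1.96 SE to each side and are narrower than 95% intervals of the F-test. Cxcr4 changes sign (-0.07 and 0.42) and so does Ccl9 (0.09 and -1.57), while Ccr2 lies at -1.86 and -1.53 and Ccr1 at -1.23 and -1.24; no member passed in either fit.

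Other chemokine receptors and ligands were counted from lists of 17 and 30 genes. With the 10 members 51 of 57 listed genes were in the table and 27 were tested. In Runx2ko against Runx2wt none passed with edgeR, as over all tested genes. Of the 27, 7 lay wholly lower (the 5 members, Ccl2 and Ccl7), as did 4.73% of all tested genes. Wholly higher was 1, the eosinophil attractant Ccl24, as were 4.95% of all tested genes. Ccrl2, an atypical receptor that binds chemerin and the most highly counted of the other receptors, was at 5.5, 4.0 and 8.94 CPM in Runx2ko, 5.64, 11.6 and 6.96 CPM in Runx2wt and 4.93, 6.47 and 9.13 CPM in BM progenitor. Its groups overlapped, and the log2 fold change of -0.39 between the transformed groups did not pass (SE 0.45, edgeR adjusted p = 0.854). Ccl2, the CCR2 ligand, was at 16.8, 79.4 and 64.2 CPM in Runx2ko, 157.3, 82.6 and 136.3 CPM in Runx2wt and 101.6, 106.0 and 151.2 CPM in BM progenitor. Runx2ko replicate 2 came within a few CPM of Runx2wt replicate 2, and the log2 fold change of -1.22 did not pass (SE 0.48, edgeR adjusted p = 0.582; -0.81 and adjusted p = 0.489 without Runx2ko replicate 1). Ccl7, a further CCR2 ligand chosen after its values were seen, was at 12.6, 46.8 and 42.8 CPM in Runx2ko, 94.3, 50.4 and 133.5 CPM in Runx2wt and 12.6, 21.0 and 42.1 CPM in BM progenitor, and its log2 fold change between the transformed groups was -1.43 (SE 0.57, adjusted p = 0.582; -1.05 and adjusted p = 0.619 without Runx2ko replicate 1).

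Receptors and ligands outside the members were also compared with BM progenitor, where 17.2% of all tested genes passed for Runx2ko and 13.5% for Runx2wt. Of 5 tested receptors 3 fell and none rose in Runx2ko, and 3 fell and none rose in Runx2wt. Without BM progenitor replicates 1, 2 and 3 in turn, 2, 1 and 1 receptors fell in Runx2ko and 2 in each case in Runx2wt. The fit without replicate 3 also called fewer of all genes in Runx2wt against BM progenitor, 209 against 1513 over all libraries. Of 12 tested ligands 2 fell and none rose in Runx2ko (16.7%, near the share over all genes), and 2 fell and 1 rose in Runx2wt (25%). Ccr3, the eotaxin receptor of eosinophils, had 0 counts in Runx2wt and was at least 26.7-fold lower than in BM progenitor. In BM progenitor it was at 8.03, 4.59 and 5.95 CPM. The bound uses a floor of 3 counts over the group and covers counting error only. Ccr3 also fell in Runx2ko, on 2 counts (log2 fold change -4.93, edgeR adjusted p = 0.0204). Ccr7, which guides dendritic and T cells to lymph nodes, was at 0.323, 1.71 and 0.271 CPM in Runx2ko, 0, 0 and 0.278 CPM in Runx2wt and 8.21, 12.1 and 15.5 CPM in BM progenitor, and it fell in Runx2ko (edgeR adjusted p = 0.0129) and in Runx2wt (adjusted p = 0.0051). Ccr9, the receptor for CCL25, fell by 4.17 log2 units in Runx2ko (SE 0.56, edgeR adjusted p = 0.00351) and by 5.31 in Runx2wt (SE 0.62, adjusted p = 0.00261), with 12.4 to 22.5 CPM in BM progenitor and at most 1.62 CPM elsewhere. Ccl25 itself rose in Runx2wt (log2 fold change 1.63, SE 0.47, adjusted p = 0.0492). Ccl24 was at 2.26, 2.28 and 1.90 CPM in Runx2ko, 0, 0 and 0.278 CPM in Runx2wt and 103.5, 187.7 and 158.4 CPM in BM progenitor, and it fell in Runx2ko (edgeR adjusted p = 0.000163) and in Runx2wt (adjusted p = 3e-05). Ccl22, a CCR4 ligand, had 0 counts in Runx2ko and was at least 36.4-fold lower than in BM progenitor. It fell in Runx2wt as well, on 1 count (log2 fold change -6.375, edgeR adjusted p = 0.00935). Summed eosinophil markers (9 genes, Ccr3 among them) were at 9.13 to 19.4 CPM in Runx2ko, 2.77 to 4.70 CPM in Runx2wt and 1382 to 1844 CPM in BM progenitor, and 4 of the 9, Ccr3, Epx, Ear1 and Ear2, had 0 counts in Runx2wt. Summed dendritic cell markers (10 genes) were at 8.67 to 98.6 CPM in Runx2ko, 24.6 to 63.2 CPM in Runx2wt and 245.8 to 344.1 CPM in BM progenitor. The part of either cell type in these falls was not tested.

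**Figure D4:**
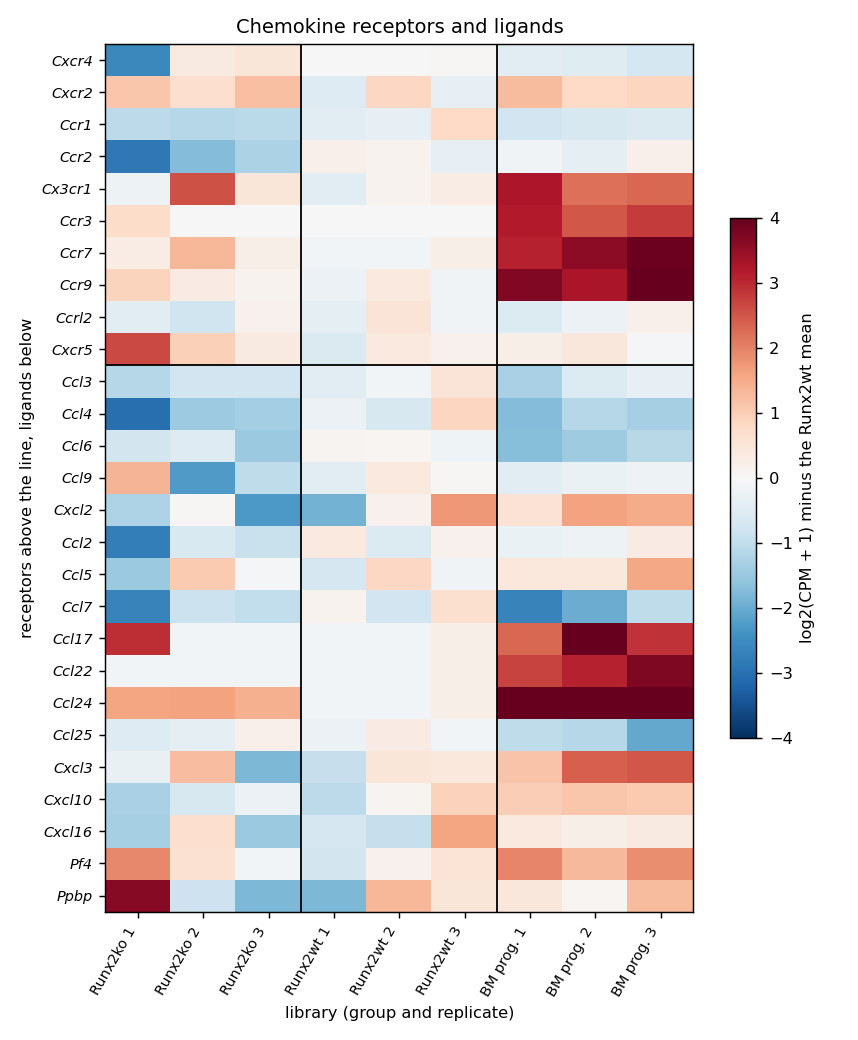
Levels of 27 tested chemokine receptors (above the line) and ligands (below it) in each library, as log2(CPM + 1) minus the Runx2wt mean of the gene, with colours clipped at 4 in both directions. Ccr3, Ccr7, Ccr9, Ccl22 and Ccl24 are dark red in BM progenitor and pale in Runx2wt, and Runx2ko replicate 1 is the bluest library for Cxcr4, Ccr2, Ccl4 and Ccl2.

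Receptors for other chemoattractants, genes that act downstream of chemokine receptors and genes of marrow homing were counted in the same way, and none of their 13, 35 and 18 tested genes passed in Runx2ko against Runx2wt. The most highly counted of each list there were Ptafr, the receptor for platelet-activating factor (log2 fold change -0.48, edgeR adjusted p = 0.84), Gnai2, the inhibitory G protein subunit that couples these receptors (-0.26, adjusted p = 0.72), and Ctsg, the granule protease cathepsin G (0.32, adjusted p = 0.873). Of the 13 chemoattractant receptors 2 (15.4%) fell and none rose in Runx2wt against BM progenitor, where 13.5% of all tested genes passed. These were Cmklr1, the chemerin receptor, with a log2 fold change of -6.35, and S1pr4, a receptor for sphingosine phosphate, with -2.27. In Runx2ko against BM progenitor 2 fell and none rose, where 17.2% of all genes passed, so both counts were near the share over all genes. They were Cmklr1 with a log2 fold change of -5.99 and Gpr183, an oxysterol receptor, with -3.03.

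Among 35 signalling genes 3 rose and 3 fell in Runx2wt against BM progenitor (17.1%, near the 13.5% of all tested genes). The largest changes were falls of Grk3, a kinase that desensitises receptors, by 6.68 log2 units (SE 1.50, edgeR adjusted p = 0.0228), of Rgs1, which shortens G protein signals, by 3.71 (SE 0.98, adjusted p = 0.038) and of Pik3r5, a regulatory subunit of PI3-kinase gamma, by 1.57 (SE 0.43, adjusted p = 0.043). Grk3 was at 36.6, 1.71 and 1.08 CPM in Runx2ko, 0.376, 0 and 0.278 CPM in Runx2wt and 26.3, 24.0 and 31.2 CPM in BM progenitor. Its level in Runx2ko replicate 1 was in the range of BM progenitor or above, and without that library Grk3 fell in Runx2ko as well, by 4.22 log2 units (SE 0.46, adjusted p = 0.000156). In Runx2ko against BM progenitor over all libraries 3 signalling genes rose and 1 fell (11.4%, against 17.2% of all genes), among them Rac2, a GTPase of the leukocyte cytoskeleton, by 1.05 (SE 0.25, adjusted p = 0.0225), Plcb2, a phospholipase activated by G proteins, by 1.15 (SE 0.27, adjusted p = 0.0216) and Pik3r5, which fell by 2.27 (SE 0.45, adjusted p = 0.0129).

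Of 18 homing and retention genes 3 rose and 1 fell in Runx2wt against BM progenitor (22.2%, against 13.5% of all tested genes). Itgb2, the beta subunit of leukocyte integrins, rose 1.36 log2 units (SE 0.39 in edgeR, adjusted p = 0.0482) and Cd9, a tetraspanin, by 1.31 (SE 0.28, adjusted p = 0.0203), while Cd34, a surface sialomucin of progenitors, fell by 3.51 (SE 0.95, adjusted p = 0.0402). In Runx2ko against BM progenitor 3 rose and 1 fell (22.2%, against 17.2%), among them Itgal, the alpha subunit that pairs with Itgb2, by 1.81 (SE 0.32, adjusted p = 0.00903), Cd47, the signal that restrains phagocytes, by 0.85 (SE 0.19, adjusted p = 0.0177) and Mmp14, a membrane metalloproteinase, which fell by 3.62 (SE 0.95, adjusted p = 0.0316). Without BM progenitor replicate 1, 2 or 3, none of the 35 signalling and 18 homing genes passed in Runx2wt against BM progenitor, and at most 1 of each list did in Runx2ko against BM progenitor. The count over all genes fell as well: without BM progenitor replicate 3, 209 genes passed in Runx2wt against BM progenitor, against 1513 over all libraries. The counts of these lists grew without Runx2ko replicate 1: in Runx2ko against BM progenitor 6 signalling genes rose and 4 fell, and 5 homing genes rose and 3 fell, in a fit that called 28.5% of 11636 genes. In that fit Itgal also rose in Runx2ko over Runx2wt, by 2.28 log2 units (SE 0.19, edgeR adjusted p = 9e-04), where 0.043% of genes passed, against 1.96 and adjusted p = 0.442 over all libraries.

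Genes whose pattern was most like that of Cxcr4 were taken as the 5 with the highest Pearson correlation of log2 CPM among 8356 tested genes with a mean of at least 10 CPM. Over 9 libraries these were Acpp (0.990), Slc36a4 (0.987), Mcemp1 (0.986), Mtus1 (0.986) and Aldh3b1 (0.984), and all 5 were lowest in Runx2ko replicate 1. Acpp, for example, was at 0.647, 82.6 and 122 CPM in Runx2ko, 63.6, 56.0 and 35.1 CPM in Runx2wt and 23.2, 21.8 and 16.1 CPM in BM progenitor. Over the 8 libraries without Runx2ko replicate 1 the 5 were other genes, Rassf2 (0.988), Ganab (0.983), Dclre1b (0.982), Txndc15 (0.982) and Atg14 (0.979). Among the members the correlation with Cxcr4 ran from -0.75 for Ccl9 to 0.66 for Ccl4 over 9 libraries, and from -0.70 for Ccr2 to 0.33 for Ccl6 over 8. The sign for Ccr2 differed between these sets (0.51 over 9 libraries). The libraries share their groups, so these values describe the pattern only.

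**Figure D5:**
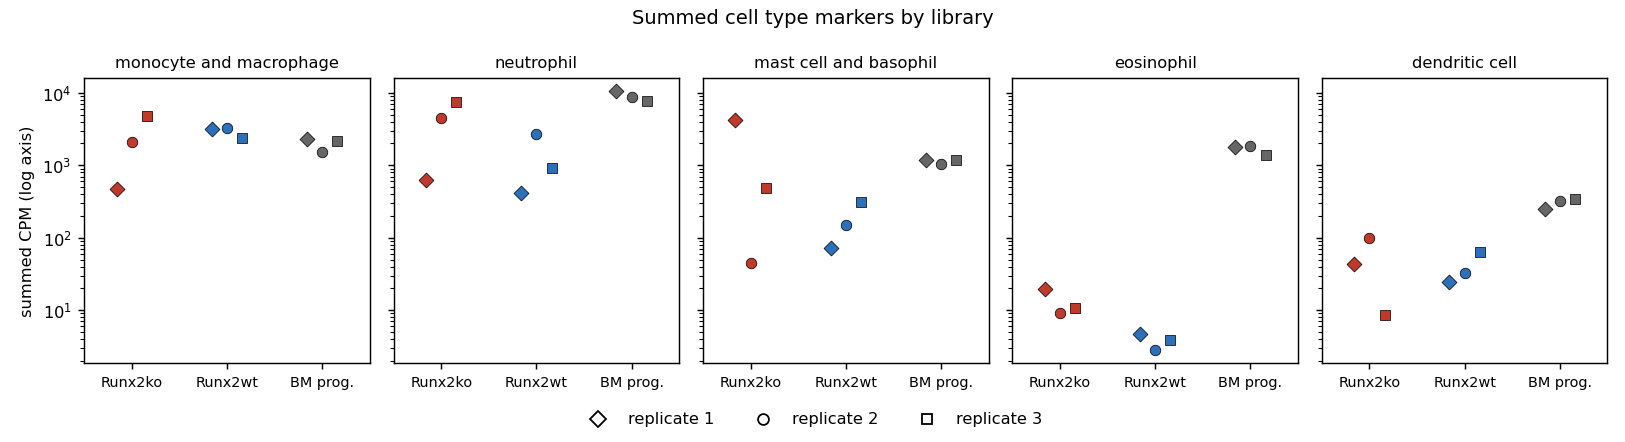
Summed CPM (log axis) of 5 lists of cell type markers in each library of Runx2ko, Runx2wt and BM progenitor, with symbols for the replicate number. Runx2ko replicate 1 is lowest for monocyte and macrophage markers (469 CPM) and highest for mast cell and basophil markers (4222 CPM), and eosinophil markers are at 1382 to 1844 CPM in BM progenitor and at most 19.4 CPM in transformed cells.

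Since Ccr2 and Cx3cr1 are genes of monocytes, the marker lists were set beside them. Summed monocyte and macrophage markers were at 469, 2107 and 4859 CPM in Runx2ko. They were at 2418 to 3279 CPM in Runx2wt and 1529 to 2309 CPM in BM progenitor. Of these sums Ly6c2 alone held 199.3, 1420 and 3552 CPM in Runx2ko. It held 1202 to 2620 CPM in Runx2wt and 1050 to 1712 CPM in BM progenitor. No marker of the 12 had 0 counts in a whole group. In Runx2ko against Runx2wt 0 of the 12 monocyte markers had groups that did not overlap. Of all tested genes 4.73% lay wholly lower there and 4.95% wholly higher. In Runx2wt against BM progenitor 4 markers lay wholly lower and 4 wholly higher, as did 24.5% and 24.8% of all tested genes. In Runx2ko against BM progenitor 4 lay wholly lower and 3 wholly higher, as did 18.8% and 19.5% of all tested genes. The part of monocytes in the Ccr2 and Cx3cr1 levels was not tested. Summed neutrophil markers (12 genes) were at 627.5, 4471 and 7397 CPM in Runx2ko, 413.9, 2710 and 919.2 CPM in Runx2wt and 10482, 8865 and 7674 CPM in BM progenitor, and the part of neutrophils in the Cxcl2 and Cxcr2 levels was not tested.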

How the data were processed

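Each of the 9 samples gave a 3' tag library (QuantSeq reverse kit, 500 ng of RNA, per the labels' protocols), 3 per group. The deposited tables hold raw counts for Ensembl genes and normalized values made by the authors; dividing the tables showed each normalized value to be a raw count over 1 constant per library. The submitters' processing notes list FastQC, STAR, DESeq2 and GRCm38. No version, counting program or use of strand is stated there, so overlapping genes may share reads. Symbols came from GENCODE and matched 21042 of 21159 identifiers; 1188 genes had no count.

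The deposited counts entered edgeR 4.0.16 under R 4.3.3 (quasi-likelihood F-test, TMM factors, filterByExpr, 1 fit for all 9 libraries), and 11196 genes were tested. Genes with a Benjamini-Hochberg adjusted p under 0.05 over all of these passed. Standard errors came from the F statistic. For a group at 0 counts, a floor of 3 counts over the group gave a bound. The fit was tested on simulated data. Alternatives were DESeq2 1.42.0, limma-voom (limma 3.58.1), limma-trend on log2 of the authors' normalized values plus 1, other size factors, no low-count filter, only the compared libraries, a replicate block and leaving out each library. Labels call the samples independent biological replicates, and replicates of a group differed beyond sampling noise (lowest chi-square per gene 4.49). With 3 libraries against 3, an exact permutation test of a single gene cannot go below p = 0.1, so none is given.

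The text names all members and, per further list and comparison, up to 3 passing genes by size of change. Where none passed it names the gene with the highest mean CPM. It also names the 5 genes most correlated with Cxcr4. The members and lists were chosen with earlier results of these data known. Some listed genes, such as Ccr8 and Cxcr1, were not analysed here, and 1 chemokine receptor is not reported here.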

Additional observations from a re-analysis of the deposited data

How the results depend on the processing

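Over the alternatives, 437 of the members' results kept direction and call, 11 kept direction and passed only under an alternative, 12 no longer passed and 18 changed sign. Among those that changed sign, Ccl9 in Runx2ko against BM progenitor passed without Runx2ko replicate 1. For Runx2wt against BM progenitor, 2 members passed; the count was 1 with limma-voom, 4 with only the compared libraries, 1 with the replicate block and 0 to 4 when a library was left out (0 without BM progenitor replicate 1 or 2, and 4 without Runx2ko replicate 1). Over all genes 1513 passed, against 2390 with DESeq2, 3679 with only the compared libraries, 922 with the replicate block and 209 (without BM progenitor replicate 3) to 3256 (without Runx2ko replicate 1) when a library was left out. For Runx2ko against Runx2wt 0 passed, DESeq2 called 2 members and 46 genes, and leaving out a library gave 0 to 5 genes. For Runx2ko against BM progenitor 1 member passed, with 0 to 3 when a library was left out (0 without BM progenitor replicate 1 or 3, and 3 without Runx2ko replicate 1), and 1924 genes passed, against 1262 with only the compared libraries, 1120 with the replicate block and 405 to 3311 when a library was left out. Leaving out a compared library also leaves fewer libraries in a group.

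Log2 fold changes that changed sign had not passed in the edgeR fit over all 9 libraries. With a library left out, Ccr2 in Runx2wt against BM progenitor ran from -0.016 to 0.258, Cxcr4 in Runx2ko against Runx2wt from -0.459 to 0.424 (without Runx2ko replicate 1), Ccl9 in Runx2ko from -1.573 (without replicate 1) to 0.58 (without replicate 2) against Runx2wt and from -1.242 to 0.89 against BM progenitor for the same libraries, and Cxcr2 in Runx2ko against BM progenitor from -0.139 to 0.231. With limma-voom Ccl9 in Runx2ko was at -0.677 against Runx2wt and -0.382 against BM progenitor, and Cxcr2 at -0.065 against BM progenitor. With the authors' normalized values Ccl9 was at -0.652 and -0.366 and Cxcr4 in Runx2ko against BM progenitor at -0.059. With the replicate block Ccl9 was at -0.406 and -0.019. The cause was not tested.

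No clear common deviation of same-numbered samples was seen (correlations -0.066 to 0.072), and 3 of 6, 3 of 6 and 0 of 6 libraries correlated best with their own number. With 3 libraries per group this check cannot exclude a shared source of same-numbered samples. Under the replicate block Cx3cr1 no longer passed in Runx2wt against BM progenitor (-3.361).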
